A study of Homo sapiens with 2 samples.

Results

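The tubulin subunit mRNAs are the listed transcripts of 6 beta-tubulin genes (TUBB, TUBB2A, TUBB2B, TUBB3, TUBB4B and TUBB6) and 4 alpha-tubulin genes (TUBA1A, TUBA1B, TUBA1C and TUBA4A). They were picked by symbol, and all 10 have a row among the 14914 features of the table. RNA immunoprecipitation sequencing (RIP-seq) was done in HUH7, an established line of human hepatocellular carcinoma. One library holds RNA recovered with CSTF2 (the IP) and 1 holds the input RNA (the Input), and the series asks which RNAs CSTF2 may bind. CSTF2, as background, contacts RNA for the cleavage stimulation complex when the 3′ ends of mRNAs are formed. The labels give no treatment or genotype, and a mock immunoprecipitation was not used here.

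Alpha- and beta-tubulin proteins pair into dimers that polymerize into microtubules, the tracks and spindle fibres of the cell. The genes encode isotypes of each subunit that differ mainly in the carboxy-terminal tail and in the tissues that express them. Tubulin mRNAs are known for autoregulation: when free tubulin dimers accumulate, the ribosome-associated protein TTC5 recognizes the first residues of the emerging tubulin chain, and through SCAPER and the CCR4-NOT deadenylase complex the mRNA being translated is degraded.

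The coding sequence that carries this signal separates both subunit families, so its first 30 bases are shown for 6 mRNAs that cover all forms found among the members (GENCODE, GRCh38, 5′ to 3′ on the spliced mRNA). One mRNA was chosen per gene, the protein-coding transcript of the best annotated rank and, among those, the longest. The first 12 bases, which hold the start codon and the 3 codons after it, are in capitals.
TUBB: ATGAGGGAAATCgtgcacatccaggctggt
TUBB3: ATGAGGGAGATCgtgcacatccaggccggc
TUBB2A: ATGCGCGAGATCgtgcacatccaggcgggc
TUBB2B: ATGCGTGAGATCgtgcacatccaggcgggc
TUBA1B: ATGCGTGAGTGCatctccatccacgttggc
TUBA4A: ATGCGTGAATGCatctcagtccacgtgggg
TUBB4B has the same 12 capitals as TUBB, and TUBB6 the same as TUBB3. TUBA1A and TUBA1C share those of TUBA1B. Across the chosen mRNAs of all listed genes, none of these 12-base starts was found outside the 10 members.

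The poly(A) signal is the hexamer AATAAA or its variant ATTAAA that lies shortly before the cleavage site. CSTF2 is known to act on bases after that site, which are not part of the mRNA sequences searched here. The hexamers below are therefore not sites of CSTF2. Of the 10 chosen mRNAs, 6 had AATAAA and 8 had either hexamer in their last 50 bases, searched on the mRNA strand. Among 11445 listed genes with a chosen mRNA the share was 77.7%. The windows of 30 bases below show the signal in capitals for the beta genes with the highest, the second highest and the lowest level and for the best covered alpha gene that holds it.
TUBB4B: agacaccaccATTAAAgcattttcatagtg
TUBB: gagccaaaAATAAAtgggaattgaaaaaag
TUBB3: ggatacttAATAAAtctattgctgtcagat
TUBA1C: cagtctttAATAAAgtattagtcacacgag
TUBA1B and TUBB6 had neither hexamer in the last 50 bases of the chosen mRNA, which says only that these letters are not in that window. The GT-rich pentamer TGTGT was searched over the whole mRNA, on the mRNA strand with overlaps counted, and its copies were not taken as CSTF2 sites. It occurred in 9 of the 10 mRNAs and in 91.4% of the chosen mRNAs of listed genes. TUBA1B held 5 copies and TUBA4A held 0.

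In the table all 6 beta-tubulin mRNAs were higher in the IP than in the Input, by 1.31 to 2.05 times, whereas the 4 alpha-tubulin mRNAs had ratios of 0.845 to 1.29. No member was past 2-fold in either direction on the log2(RPKM + 1) scale, against 16.7% of the 9880 features that averaged 1 RPKM or more (9.88% higher and 6.83% lower). All 10 members passed that filter. The median RPKM ratio of those 9880 features was 1.18, so ratios above 1 were common in the table. RPKM is the number of reads per kilobase of gene length, scaled to the assigned reads of the library. There is 1 library per group, so no difference has a replicate check, and the 95% intervals given with the ratios cover counting error only. The levels are of bulk RNA, where fewer cells that hold an mRNA and less of it per cell cannot be told apart. Assigned reads came to 3220045 for the IP and 9517885 for the Input, so the Input was 2.96 times deeper. Mitochondrially encoded features took 61.8% of the IP reads and 61.6% of the Input reads. All 6 hepatocyte markers looked for were listed, with a summed level of 328 RPKM (IP) and 392 RPKM (Input). Of 5 neuron markers 2 were listed, at a summed 1.13 RPKM (IP) and 0.578 RPKM (Input), and of 5 blood and stroma markers 3 were listed, at 5.44 RPKM (IP) and 3.35 RPKM (Input).

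TUBB4B, a beta isotype found in most tissues, was the most abundant member per kilobase of the counted gene length. It lies on chromosome 9 from 137241213 to 137243707 on the plus strand and had an IP level of 162 RPKM and an Input level of 124 RPKM, from 1101 IP and 2486 Input reads. Its ratio was 1.31 (1.22 to 1.41).

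TUBB, the beta class I isotype that most dividing cells express, lies on chromosome 6 from 30720201 to 30725426, plus strand. It had an IP level of 67.3 RPKM and an Input level of 43.8 RPKM, from 728 IP and 1399 Input reads, a ratio of 1.54 (1.40 to 1.68). Its ratio was higher than that of TUBB4B by a factor of 1.18 (1.05 to 1.32), with an interval above 1.

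TUBB3, the class III isotype that is widely used as a marker of neurons and is also expressed in many tumours, had the highest ratio of the 10. The gene lies on chromosome 16 from 89921392 to 89938761, plus strand. It had an IP level of 8.83 RPKM and an Input level of 4.32 RPKM, from 126 IP and 182 Input reads, and its ratio was 2.05 (1.62 to 2.58). With the pseudocount this was 1.85-fold, so it stayed inside the 2-fold limit there. The ratio exceeded those of TUBB, TUBB2B, TUBB4B and TUBB6 by factors with intervals above 1, the largest being 1.56 over TUBB4B (1.22 to 2.00), while the interval against TUBB2A reached 1. Of the 5 neuron markers, SNAP25 and SYT1 were listed, both below the filter of a mean of 1 RPKM, and STMN2, NEFL and RBFOX3 had no row. The part of other cells in the TUBB3 value was not tested.

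TUBB2A and TUBB2B are neighbouring class II genes on the minus strand of chromosome 6, from 3153669 to 3157526 and from 3224261 to 3231730. TUBB2A had an IP level of 18.2 RPKM and an Input level of 12.5 RPKM, a ratio of 1.46 (1.14 to 1.86), from 101 IP and 205 Input reads. TUBB2B had an IP level of 15.7 RPKM and an Input level of 11.3 RPKM, a ratio of 1.38 (1.10 to 1.74), from 111 IP and 237 Input reads. Their sequences are close: 54.4% of the 100-base windows of the TUBB2A mRNA occur in transcripts of TUBB2B. Summed, so that a split of shared reads between them does not matter, the pair had 212 IP reads and 442 Input reads, a ratio of 1.42 (1.20 to 1.67).

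TUBB6, the class V isotype, lies on chromosome 18 from 12307669 to 12344320, plus strand. It had an IP level of 14.9 RPKM and an Input level of 10.3 RPKM, from 198 IP and 403 Input reads, and its ratio was 1.45 (1.22 to 1.73). None of its 100-base windows occurs in a transcript of another gene. The gene overlaps AFG3L2 on the opposite strand over 837 bases of exon, and no strand setting is given, so reads of both genes cannot be told apart there.

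**Figure D1:**
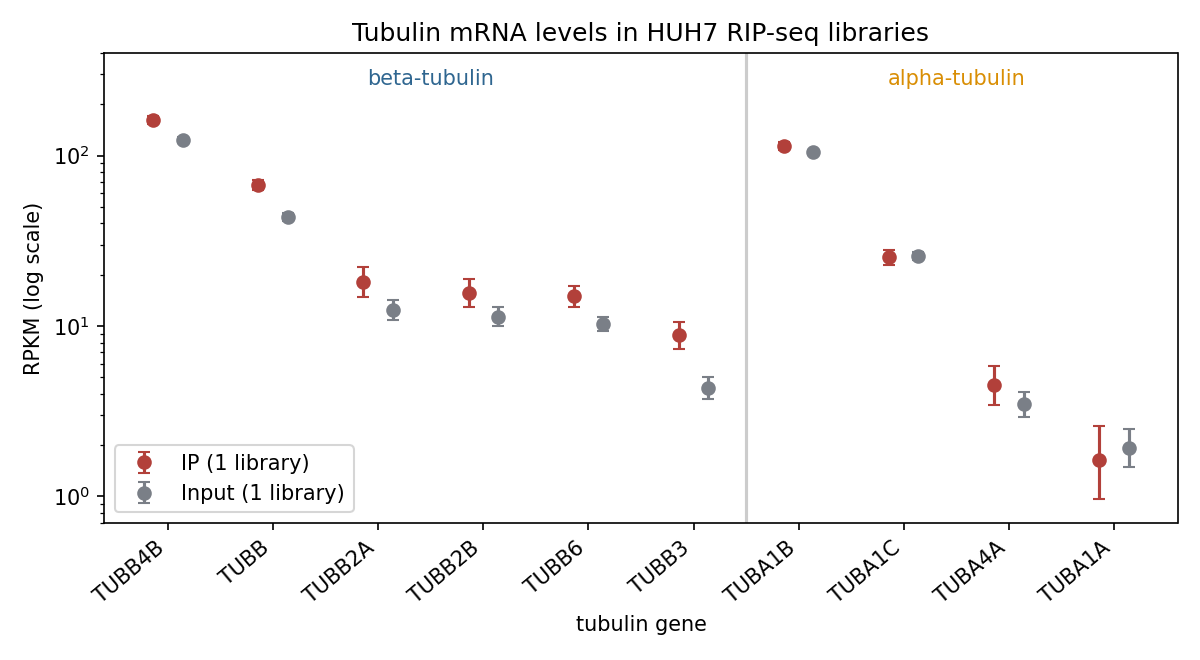
RPKM of each tubulin gene on a log scale in the IP library (left point of each pair) and the Input library (right point), with exact Poisson 95% intervals, beta-tubulin left of alpha-tubulin. Levels span from 1.63 to 162 RPKM in the IP and from 1.93 to 124 RPKM in the Input, and all 6 beta genes have the higher point in the IP. The median RPKM ratio of all features past the filter was also above 1, at 1.18.

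Among the alpha-tubulin genes, TUBA1A, TUBA1B and TUBA1C form a cluster on chromosome 12. TUBA1B, a widely expressed alpha isotype, lies on the minus strand from 49127782 to 49131397. It had an IP level of 114 RPKM and an Input level of 105 RPKM, from 1314 IP and 3575 Input reads, the most reads of any member. Its ratio was 1.09 (1.02 to 1.16), below the median RPKM ratio of all features past the filter, which was 1.18.

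TUBA1C, on the plus strand from 49188736 to 49274603, had an IP level of 25.4 RPKM and an Input level of 25.8 RPKM, from 379 IP and 1136 Input reads. Its ratio of 0.986 had an interval that holds 1 (0.876 to 1.11). TUBA1A, the isotype of developing neurons, lies on the minus strand from 49184796 to 49189324 and was the lowest member. It had an IP level of 1.63 RPKM and an Input level of 1.93 RPKM, from 18 IP and 63 Input reads, and its ratio of 0.845 (0.471 to 1.45) could not be placed on either side of 1 at this depth.

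TUBA4A, whose mRNA encodes an alpha-tubulin that lacks the terminal tyrosine added to and removed from most others, lies on chromosome 2 from 219249711 to 219278170, minus strand. It had an IP level of 4.49 RPKM and an Input level of 3.48 RPKM, from 59 IP and 135 Input reads. Its ratio was 1.29 with an interval that also holds 1 (0.935 to 1.77), and it was the only alpha gene above that median. Summed over TUBA1A, TUBA1B and TUBA1C, which share sequence, the ratio was 1.06 (1.002 to 1.12).

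**Figure D2:**
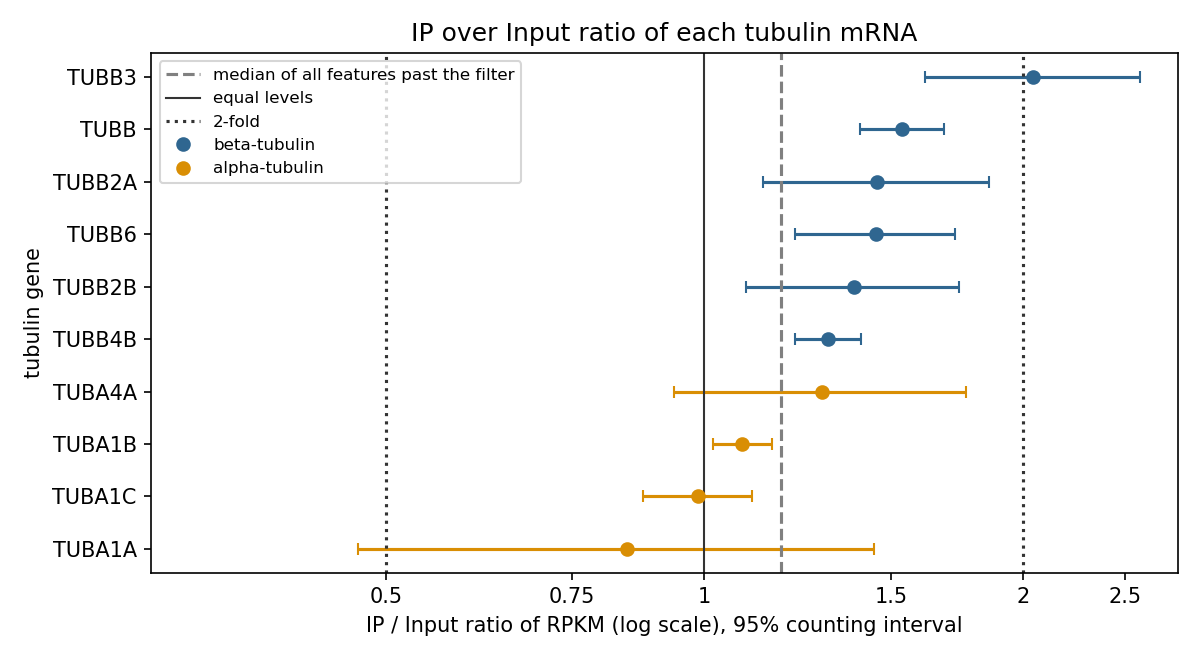
IP over Input ratio of RPKM for each tubulin gene on a log scale, with the 95% counting interval, ordered from the highest ratio at the top, where beta-tubulin is blue and alpha-tubulin orange. The 6 beta genes lie above the 4 alpha genes, with TUBB3 at 2.05 highest and TUBA1A at 0.845 lowest, and the dashed line marks the median RPKM ratio of all features past the filter at 1.18.

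Taken by subunit, the beta genes had 2365 IP reads and 4912 Input reads, a ratio of 1.42 (1.35 to 1.49). The alpha genes had 1770 IP reads and 4909 Input reads, a ratio of 1.07 (1.01 to 1.13). The beta ratio was 1.34 times the alpha ratio (1.24 to 1.44), a quantity that no rescaling of the libraries changes. It was 1.31 without TUBB3 (1.22 to 1.41), 1.45 without TUBB4B and TUBB (1.28 to 1.63), and 1.41 without TUBA1B among the alpha genes (1.25 to 1.59). Of the 24 pairs of a beta and an alpha gene, the beta ratio was the higher in 24, and the interval of the difference lay above 1 in 14. The pairs are not independent, since each gene enters several of them. In 4 of the 6 pairs of TUBA1A and in 5 of the 6 pairs of TUBA4A, both with few reads, the interval held 1. The remaining interval that held 1 was that of TUBB2B over TUBA1B, at 1.27 (0.999 to 1.62). Among genes with the same 12-base start, the ratio of TUBB over TUBB4B came to 1.18, as given above, and that of TUBB3 over TUBB6 to 1.41 (1.05 to 1.89). The intervals of all pairs among TUBA1A, TUBA1B and TUBA1C held 1, with TUBA1B over TUBA1C at 1.10 (0.964 to 1.26), TUBA1A over TUBA1B at 0.777 (0.431 to 1.34) and TUBA1A over TUBA1C at 0.856 (0.471 to 1.49).

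As shares of the 4135 IP reads and 9821 Input reads of all 10 genes, beta-tubulin made up 57.2% of the IP and 50.02% of the Input. TUBB took 17.6% of the IP (16.5 to 18.8) and 14.2% of the Input (13.6 to 14.9). TUBB3 took 3.05% of the IP (2.56 to 3.62) and 1.85% of the Input (1.61 to 2.14). TUBA1B took 31.8% of the IP (30.4 to 33.2) and 36.4% of the Input (35.5 to 37.4), and TUBA1C 9.17% of the IP and 11.6% of the Input. All 10 together made up 0.128% of the IP library and 0.103% of the Input library.

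**Figure D3:**
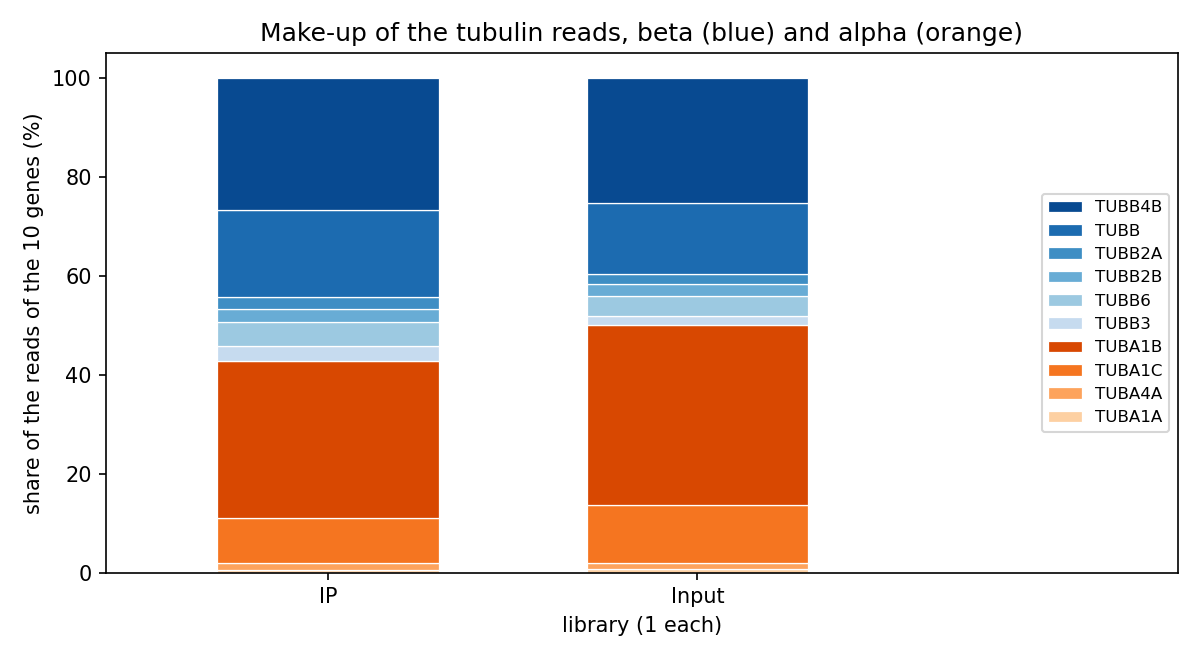
Share of the reads of the 10 tubulin genes that each gene took, in percent, in the IP library (left bar) and the Input library (right bar), with beta-tubulin in blue stacked over alpha-tubulin in orange. Beta-tubulin fills 57.2% of the IP bar and 50.02% of the Input bar.

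The members ran in the same order of RPKM in both libraries: TUBB4B, TUBA1B, TUBB, TUBA1C, TUBB2A, TUBB2B, TUBB6, TUBB3, TUBA4A and TUBA1A. Neighbours whose counting intervals overlapped in both were TUBB2A with TUBB2B and TUBB2B with TUBB6, and in the Input also TUBB3 with TUBA4A. This order depends on the length that divides the reads. The recovered lengths equalled the union of all annotated exons for all 10 genes, retained introns included, and the chosen mRNA covers between 39.9% (TUBB3) and 92.4% (TUBB2A) of that length. On the same scale but per kilobase of the chosen mRNA, a setting added after the data were seen, TUBA1B was first at 251 in the IP and 231 in the Input, ahead of TUBB4B at 209 in the IP and 160 in the Input. All reads counted over the exon union were kept for it, so reads from outside the chosen mRNA can raise these values. The chosen mRNA covers 45.5% of the counted length for TUBA1B and 77.55% for TUBB4B. TUBB3 came to 22.1 in the IP and 10.8 in the Input on that scale. The choice of this length does not change the ratios of RPKM without a pseudocount, but it does change those with the pseudocount.

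Set beside the whole table, 7 of the 10 members had a counting interval above 1 and 0 had one below 1. Of all features past the filter 36.1% had an interval above 1 and 20.1% one below 1. With at least 100 reads in each library the members gave 7 of 8, against 58.6% of 2505 features. Read against the median RPKM ratio of 1.18, the interval lay above it for 4 members (TUBB, TUBB3, TUBB4B and TUBB6) and below it for 2 (TUBA1B and TUBA1C), where 26.9% of features lay above and 28.4% below. The 2505 features with at least 100 reads in each library had a higher median RPKM ratio, 1.33. The intervals of TUBB and TUBB3 lay above 1.33. Those of TUBA1B and TUBA1C lay below it, and those of TUBB2A, TUBB2B, TUBB4B and TUBB6 held it. The median log2 ratio of these 2505 features was 0.36, against 0.47 for the 8 members with as many reads. At 1.5-fold, 2 members (TUBB and TUBB3) were higher and 0 lower, against 41% of features past 1.5-fold (26% higher and 15% lower). The median log2 ratio was 0.50 for the beta genes, 0.05 for the alpha genes and 0.17 for all features past the filter. With the ratios centred on that last median, the 6 beta genes stayed above 0, as under the other scalings tried, TUBA4A was at 0.12, and TUBA1B (-0.05), TUBA1C (-0.19) and TUBA1A (-0.33) were below 0. Over all features that centring gave 684 higher and 944 lower, against 976 higher and 675 lower without it. With RPKM rescaled to its sum without mitochondrially encoded features, which moved the median of all features to 1.28, all 10 members were above 0, TUBA1A (0.80) and TUBA1C (1.28) included.

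Longer genes had higher ratios across the table. Among protein-coding genes past the filter, the median log2 ratio was -0.37 from 1000 to below 2000 bp, -0.15 from 2000 to below 3000 bp, 0.03 from 3000 to below 4000 bp and 0.13 from 4000 to below 5000 bp. Each of the 6 beta genes lay above the median of its own band, by 0.36 (TUBB6) to 0.88 (TUBB2A) on the log2 scale. The alpha genes lay from -0.18 (TUBA1A) to 0.16 (TUBA4A) around theirs. Among the 2730 features inside the members' range of length and mean RPKM, the median log2 ratio was -0.03, where 4.03% were higher by 2-fold or more and 8.17% lower by 2-fold or more.

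**Figure D4:**
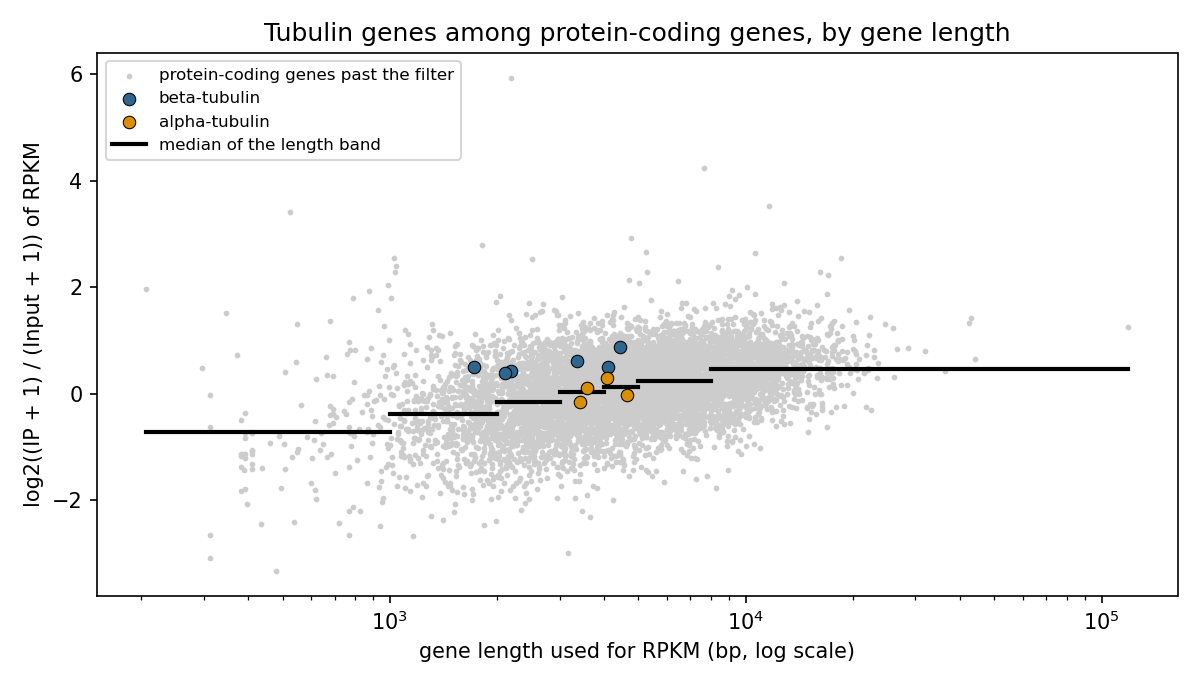
Log2 ratio of IP over Input, from RPKM plus 1, against the gene length used for RPKM in bp on a log scale, for protein-coding genes past the filter (grey), beta-tubulin (blue) and alpha-tubulin (orange), with black lines at the median of each length band. All 6 beta genes lie above the line of their band, while 2 of the 4 alpha genes do.

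GC content of the chosen mRNA ran from 52.2% (TUBB) to 62.6% (TUBB3) in the beta genes and from 51.6% (TUBA1C) to 56.3% (TUBA4A) in the alpha genes. Across the 10 mRNAs the ratio had a Spearman rho of 0.67 with GC content, where the genes share both libraries and much of their sequence. For 7598 listed genes past the filter that rho was 0.27. TUBB, at 52.2% GC, had a ratio of 1.54, while TUBA1B, at 52.4% GC, had 1.09. Every other beta mRNA, from 57.0% (TUBB2B) to 62.6% GC (TUBB3), lay above all alpha mRNAs in GC content. The part of GC content in the difference between the subunits was not tested. Within the 10, rho was -0.16 with recovered length, -0.13 with chosen mRNA length, 0.04 with 3′ UTR length, -0.27 with TGTGT per kilobase and 0.07 with mean RPKM. Across the table, rho was 0.195 with recovered length for 9879 features past the filter. With chosen mRNA length it was 0.40 for the 7598 genes, higher than the 0.27 with GC content. The 10 chosen mRNAs are alike in build, with 4 exons each and coding sequences of 1335 to 1356 bases, and they differ in 3′ UTR length, from 151 bases in TUBB4B to 1376 bases in TUBA1C.

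**Figure D5:**
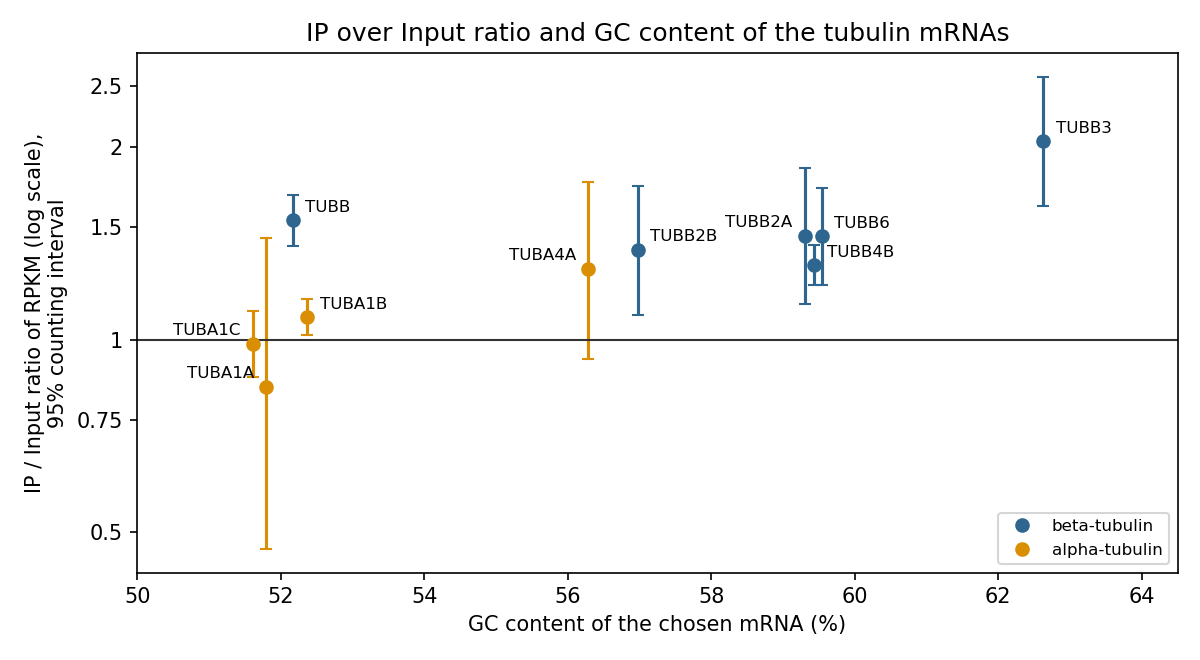
IP over Input ratio of RPKM on a log scale, with the 95% counting interval, against the GC content of the chosen mRNA in percent, for beta-tubulin (blue) and alpha-tubulin (orange). The alpha genes lie between 51.6% and 56.3% GC, and TUBB at 52.2% GC is the one beta gene among the GC-poor mRNAs, with a ratio of 1.54.

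Shared sequence limits the single values. The share of 100-base windows found in a transcript of another gene, on either strand, was 89.0% for TUBB3, 71.1% for TUBA1B, 56.4% for TUBB2A, 46.2% for TUBB2B, 29.6% for TUBA1C, 27.4% for TUBA4A, 26.6% for TUBA1A, 20.4% for TUBB, 4.49% for TUBB4B and 0% for TUBB6. For TUBB3 these windows lie mostly in the annotated readthrough gene AC092143.1, which covers 1584 bases of its exons on the same strand. For TUBA1B they lie mostly in the antisense gene AC011603.2. Neither has a row among the listed features. The windows shared with listed genes came to 5.15% for TUBB3, but to 37.2% for TUBA1B, 54.4% for TUBB2A and 42.4% for TUBB2B. Listed genes on the opposite strand overlap the exons of TUBB6 (AFG3L2, 837 bases), TUBA4A (STK16, 627 bases), TUBB2B (PSMG4, 174 bases) and TUBB4B (FAM166A, 124 bases), and TUBA1A and TUBA1C overlap each other over 490 bases. AFG3L2 had 166 IP and 339 Input reads, against 198 IP and 403 Input reads for TUBB6. STK16 had 12 IP and 14 Input reads, PSMG4 29 IP and 38 Input reads, FAM166A 38 IP and 103 Input reads. How the authors' counting treated reads of more than 1 gene is not given in the sources used here. TUBB4B and TUBB6, with the smallest shares of such windows, had ratios of 1.31 and 1.45, but the windows cover the chosen mRNA only, and 20.3% of the counted exon length of TUBB6 overlaps AFG3L2.

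The 3 protein-coding genes nearest to TUBB4B, by distance in log2(RPKM + 1) of both libraries, were HDGF (distance 0.17), CHMP4B (0.18) and ACTG1 (0.20). ACTG1, which encodes cytoplasmic gamma-actin, had an IP level of 157 RPKM and an Input level of 142 RPKM, a ratio of 1.11 (1.04 to 1.17). HDGF, a growth factor gene, had a ratio of 1.40 (1.32 to 1.48) and CHMP4B, an ESCRT-III subunit gene, one of 1.10 (1.01 to 1.19). The likeness rests on 2 libraries.

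The mRNAs of the machinery around tubulin ran in different directions, and each list is described here by counts and medians only. In the lists, 2-fold counts, medians and the order from highest to lowest are on the log2(RPKM + 1) scale, while the ratios printed for single genes are of RPKM without a pseudocount, so a gene with few RPKM can have a ratio past 2-fold and not be counted. With the RPKM sum rescaled as above, all list medians were above 0 (0.73 to 1.68), and the signs given next hold for the deposited scaling. The counts also depend on the settings: folding genes lower by 2-fold or more were 3, but 6 when centred on the median of all features, 5 with a pseudocount of 0.1 RPKM and 0 with 5 RPKM or the RPKM sum. Microtubule binding genes higher by 2-fold or more were 4, but 2 when centred, 7 with a pseudocount of 0.1 RPKM, 0 with 5 RPKM and 21 with the RPKM sum. Of 21 genes for tubulin folding, 19 passed the filter. With the pseudocount 0 were higher by 2-fold or more, against 9.88% of all features. Lower by that much were 3 (PFDN4, TBCC and VBP1), against 6.83% of all features. Without the pseudocount TBCB, at 0.457, and ARL2, at 0.328, were past 2-fold too. The list's median log2 ratio was -0.50, which is -0.68 against all features. CCT6A and CCT5, for subunits of the chaperonin that folds tubulin chains, were highest with ratios of 1.18 (1.05 to 1.32) and 1.10 (0.997 to 1.20). VBP1, a prefoldin subunit gene, was lowest on the pseudocount scale at 0.296 (0.184 to 0.455), next to TBCC, for a cofactor that completes the dimer, at 0.286 (0.101 to 0.659) from 6 IP and 62 Input reads. The folding genes that passed have a median length of 3058 bp, against 3945 bp for all features past the filter.

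Of 8 genes of the autoregulation pathway, 6 passed the filter, with a median of -0.23. With the pseudocount 0 were higher by 2-fold or more, against 9.88% of all features, and 1 (CNOT7) was lower by that much, against 6.83%. SCAPER was highest at a ratio of 2.27 (1.74 to 2.96), or 1.70-fold with the pseudocount, followed by CNOT1, the CCR4-NOT scaffold, at 1.30 (1.09 to 1.55). CNOT7, a deadenylase of that complex, was lowest at 0.392 (0.2996 to 0.505), and CNOT8 had 0.597 (0.420 to 0.831). TTC5 did not pass the filter, with 22 IP reads and 36 Input reads.

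Of 13 genes of the gamma-tubulin ring complex, which nucleates microtubules, and of the other tubulins, 12 passed, with a median of -0.16. With the pseudocount 1 (TUBGCP6) was higher by 2-fold or more, against 9.88% of all features, and 0 were lower by that much, against 6.83%. TUBGCP6, for a subunit of the ring, was highest at 6.30 (4.39 to 9.15), from 98 IP reads and 46 Input reads, and TUBGCP2, for another subunit, had 1.66 (1.24 to 2.20). TUBG1, the main gamma-tubulin gene, was lowest on the pseudocount scale (log2 ratio -0.82), with a ratio of 0.540 (0.409 to 0.704). MZT1, for a small adaptor of the ring, was next there (-0.76), with the lower ratio of 0.430 (0.177 to 0.908) from 8 IP and 55 Input reads.

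Of 18 tubulin modifying enzymes, 17 were listed (VASH1 had no row) and 10 passed, with a median of 0.49. None of the 10 was past 2-fold on the pseudocount scale, against 16.7% of all features. HDAC6, which removes acetyl groups from alpha-tubulin, had a ratio of 2.51 (1.91 to 3.30) and TTLL4, a glutamylase, 3.17 (2.03 to 4.94). SVBP, the partner of the enzymes that cut off the terminal tyrosine, had 0.647 (0.335 to 1.17), and TTL, which puts that tyrosine back, 0.691 (0.545 to 0.868).

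Of 27 genes for microtubule binding and dynamics, 26 were listed (MAPT had no row) and 24 passed, with a median of 0.58. With the pseudocount 4 were higher by 2-fold or more, against 9.88% of all features, and 0 lower by that much, against 6.83%. The 4 were NUMA1, a spindle pole protein gene, at 3.24 (2.76 to 3.81), CLIP2, for a microtubule linker protein, at 2.71 (2.20 to 3.34), PRC1, for a bundler of the spindle midzone, at 2.303 (2.05 to 2.59) and MAP1B, for a neuronal microtubule-associated protein, at 2.23 (2.06 to 2.42). Without the pseudocount MAP1A (2.82), MAP1S (2.59), MAP4 (2.12) and MAP2 (2.05) also had ratios above 2. MAPRE1, for the plus-end protein EB1, was lowest at 0.806 (0.667 to 0.968), with STMN1, for the tubulin-sequestering protein stathmin, at 0.836 (0.775 to 0.902). Median gene length in this list was 6234 bp. The part of gene length in the differences between the lists was not tested.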

How the data were processed

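RNA recovered by immunoprecipitation (IP) and input RNA were sequenced in 1 library each, and groups were taken from the sample labels. Per the file headers, the authors deposited RPKM values of both libraries, with their own log2 fold change (IP against Input), over 14914 features. FastQC 0.12.0 and build hg38 are named per the submitters' processing notes. Not given in the sources used here are the aligner, the counter and the annotation. Whole reads and gene lengths were recovered by solving the deposited RPKM and log2 fold change together. A constant of 0.125 reads on average, in proportion to depth, was added to the reads in that fold change. This gave whole values (tolerance 0.01 reads) for 14913 features, and depths of 3220045 reads for the IP and 9517885 for the Input. The recovery was tested on data simulated with the same formula and constant, which cannot show that the formula holds for the deposited values. Among the deposited features, 12660 names matched 1 gene of GENCODE release 29. Of these, 11435 had a recovered length equal to the union of the annotated exons. IP and Input were compared as log2((IP + 1)/(Input + 1)) of RPKM in the 9880 features whose mean reached 1 RPKM. The pseudocount of 1 RPKM understates changes of low genes. Ratios of RPKM have exact conditional (Clopper-Pearson) 95% intervals, levels have exact Poisson intervals and shares have Wilson intervals. All of them cover counting error of reads only. Reads copied by PCR need not be separate molecules where no molecular identifiers are used, and the intervals do not allow for this. With 1 library per group no test was made. Annotation and mRNA sequences came from GENCODE release 29 (GRCh38), with Python 3.11.15, SciPy 1.17.1 and pandas 2.3.3. For each gene the chosen mRNA was the basic-set protein-coding transcript of the best APPRIS rank, and the longest of these. All 10 members were named, with the 2 highest and 2 lowest of each related list (among genes past the filter) and of the other tubulin genes in the table, and the 3 protein-coding genes nearest to the most abundant member. Any other gene named was chosen after its value was seen. The members and lists were chosen with earlier results of these data known.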

Additional observations from a re-analysis of the deposited data

How the results depend on the processing

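No paired analysis was possible because each group has 1 library. For the same reason no replicate could be left out. The median log2 ratio of the 10 members was 0.41. It was 0.24 with ratios centred on the median of all features, 0.24 on their trimmed mean and 1.72 with RPKM rescaled to its sum without mitochondrially encoded features, where the median of all features was 1.28. With pseudocounts of 0.1 and 5 RPKM, filters, reads without mitochondrially encoded features (added after seeing the data) or only the 8 members with 100 reads, it moved by less than 0.1. Of the 10 members, the number at least 2-fold higher was 0 and became 1 (TUBB3) with a pseudocount of 0.1 RPKM, 9 with the rescaled RPKM sum and 2 at 1.5-fold. The cause of the shift with the RPKM sum was not tested. Over all 9880 features past the filter, 976 were higher and 675 lower. Of the same 9880, the counts were 1830 and 1023 with a pseudocount of 0.1 RPKM, 186 and 295 with 5 RPKM, and 6407 and 177 with the RPKM sum. They were 2569 and 1484 at 1.5-fold, 151 and 149 at 4-fold, and 684 and 944 when centred on the median of all features. Where fewer features were tested, they were 327 and 407 of 3499 at a mean of at least 5 RPKM. Within the members' range of length and RPKM they were 110 and 223 of 2730. TUBA1A, with 18 IP reads, and TUBA4A, with 59, are limited by depth.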

Other observations

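The table lists 9 further tubulin genes and tubulin pseudogenes, with means from 0.356 to 12.1 RPKM, and 4 of them pass the filter of 1 RPKM. By log2 ratio of RPKM + 1 the highest were TUBA3FP, an alpha-tubulin pseudogene, with 7 IP reads and 3 Input reads, a ratio of 6.90 (1.57 to 41.3), and TUBA8, a rarely expressed alpha-tubulin, with 7 and 4 reads, a ratio of 5.17 (1.32 to 24.1). Both were outside the filter. The lowest were TUBG1, with an IP level of 8.50 RPKM and an Input level of 15.7 RPKM, and TUBD1, the delta-tubulin gene, at a ratio of 0.619 (0.265 to 1.29) from 9 and 43 reads. TUBB4A, a beta isotype of the brain, had 8 IP reads and 14 Input reads, a ratio of 1.69 (0.614 to 4.31). TUBAP2 and TUBBP1, processed pseudogenes of the alpha and beta families, had 4 reads in each library.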
